A study of Mus musculus with 4 samples.

Results

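Semaphorin, plexin, neuropilin, ephrin, Eph receptor, slit, Robo, netrin and UNC5 genes were followed in the cerebral cortex of female C57BL/6J mice at 90 days of age. The members were all genes whose symbol in the authors' deposited table begins with one of the family prefixes, together with Nrp1, Nrp2, Ntn1, Ntn4 and Dcc, and without the Slitrk genes. This gave 70 genes with 158 probe sets, out of 20801 genes with a symbol and 45101 probe sets. A gene is represented by its probe set with the highest mean over the 4 arrays. Unc50 and Unc5cl came in by their prefix alone and are no netrin receptors, which leaves 68 members of the guidance families. Mice of C57BL/6J, a common inbred strain, were exposed through dams that drank nicotine solution, or saccharin solution alone as the control, from conception. The solutions were withdrawn at postnatal day 21, and the offspring of both groups then lived without nicotine until RNA was taken. RNA of 4 animals went into a pool, and the arrays carry a title with an exposure and the number 1 or 2. The source name of each array gives the other exposure than its title. The 2 groups of 2 arrays are named by title below, as titled nicotine and titled saccharin. Every difference by exposure is titled nicotine minus titled saccharin, and each sign would turn if the source names were right.

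Axon guidance proteins steer growing axons by attraction and repulsion. Secreted or membrane-bound cues (semaphorins, ephrins, slits and netrins) act on receptors at the growth cone (plexins with neuropilins, Eph kinases, Robos, DCC and the UNC5 family), which act on small GTPases and the actin cytoskeleton. In the adult cortex many of these genes remain expressed and are known for roles in spine shape, synapse number and plasticity, and some act in blood vessels and in oligodendrocytes.

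All values are log2 expression values as deposited, with 2.105 as the lowest value. A probe set was counted as above the dim range when its mean reached 4.04, the median level of the arrays' probe sets, and 60 of the 70 genes met this. Epha1, Efna4 and Unc5cl stood at the lowest value on all 4 arrays, and Epha2, Ntng2 and Sema6c also read the same on all 4. The other members below that level were Ephb4, Robo3, Robo4 and Sema3b. In 19 members at least 2 arrays shared exactly the same value, so a difference of 0 there carries no precision. The labelled tissue was borne out by its markers, since all 11 neuronal markers were above the dim range, Slc17a7 and Camk2a among them. With 2 arrays a group, whose source in separate pools the labels do not state, p-values reflect array-to-array spread alone, and that spread may be technical. An exact two-sided permutation test over 4 arrays cannot give a p below 0.333.

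The arrays differed more by their number than by their title. In 49 of the 60 members above the dim range the difference of number 2 minus number 1 was larger in size than that of titled nicotine minus titled saccharin, and this was so in 81.2% of all genes at that level. The median size was 0.36 by number and 0.10 by title. The map of all 60 members by array shows this as columns that resemble each other by number.

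**Figure D1:**
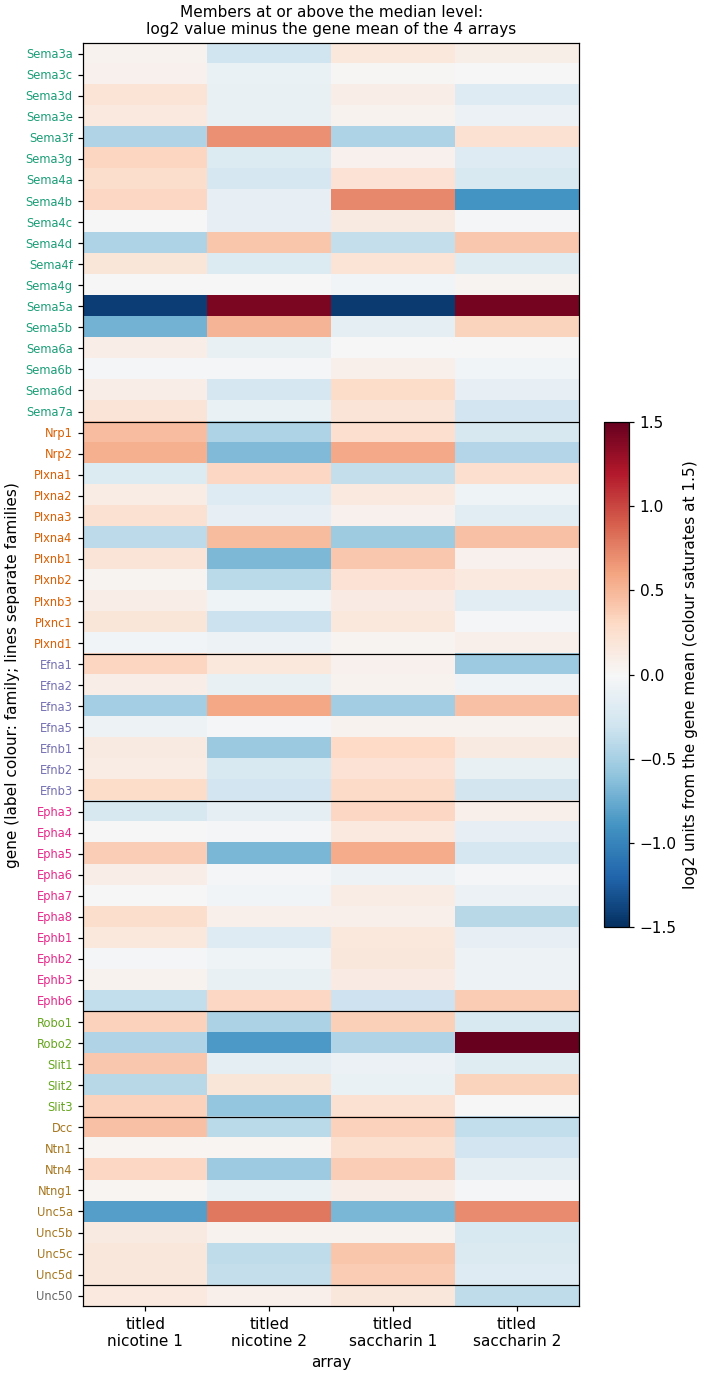
Log2 value of each of the 60 members above the dim range less that gene's mean over the 4 arrays (colour, saturating at 1.5), with one column per array and genes grouped by family. Sema5a, Unc5a and Efna3 are high in both arrays of number 2, Nrp2 and Epha5 are low in both, and Robo2 is high on a single array, titled saccharin 2.

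By title, no member passed limma's test at an adjusted p of 0.05, against 0.00222% of all probe sets, and each member had an adjusted p of 1 on each of its probe sets. At an unadjusted p under 0.05, 2 of the 60 members above the dim range were counted, Plxnd1 and Efna5, against 1.63% of genes at that level. Both were lower, as were 1.19% of those genes. Within both numbers, 23 of the 60 (38.3%) were lower in titled nicotine, against 30.6% of all genes at that level, and 11 (18.3%) were higher, against 16.8%. The median difference over the 60 was -0.033, beside -0.029 over all genes at that level, and over all 70 members it was -0.019, beside 0 over all genes. The median and the share of higher members lay near those of all genes, and the share of lower members was 38.3% beside 30.6%, a difference that was not tested. With the number as a term 7 of the 60 had an unadjusted p under 0.05, against 8.84%, and 0 passed after adjustment. Plxnd1 and Efna5 were not among these 7, with unadjusted limma p-values of 0.110 and 0.107 in that fit. In the authors' deposited table the count of member probe sets was 0 of 158 at an adjusted p under 0.05, against 0.031% of all. Its fold changes, of unstated direction, were opposite in sign to the difference by title in 53 of the 60 members. The same was so in 10175 of the 12233 genes above the dim range. Of the 70 members 25 were higher and 39 lower in titled nicotine, beside 30.2% and 41.3% of all genes. Centring arrays on their own medians adds the same 0.054 to each difference by title, and by that shift alone the split became 45 higher and 25 lower, beside 72.3% and 27.7% of all genes. Leaving out 1 array in turn reversed the sign by title at least once in 46 of the 60 members (76.7%), beside 77.2% of all genes above the dim range. The 14 others were Efna1, Efna5, Efnb1, Epha3, Epha6, Epha8, Ntng1, Plxnb1, Plxnb2, Plxnd1, Robo2, Sema3a, Sema4c and Unc5b. Without titled nicotine 1, the dim Ephb4 passed limma's test, as did 0.84% of all probe sets. Ephb4 read the same, 2.52, on both titled saccharin arrays, and the 1 titled nicotine array then left read 2.87. The values below are descriptions of 4 arrays, given by the members' roles.

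Among the cues, 31 ligands were above the dim range, with a median difference of -0.017, and 11 of them were lower and 6 higher in titled nicotine within both numbers. For semaphorins, whose 18 genes at that level had a median of -0.0070, the counts were 4 lower and 3 higher. Sema3a, a secreted repellent that acts through neuropilin 1 and A plexins, read 10.17 and 9.81 on titled nicotine 1 and 2, against 10.27 and 10.19 on titled saccharin 1 and 2. The groups did not overlap, and the difference was -0.24 (SE 0.17, n = 2 each, limma adjusted p = 1), but its second probe set above the dim range differed by 0.54. Sema3f, the secreted cue for neuropilin 2, stood at 4.42 and 5.55 in titled nicotine, against 4.41 and 5.09 in titled saccharin. Its difference of 0.23 came from number 2, since the arrays of number 1 were nearly the same. Sema4c, a transmembrane semaphorin that binds B plexins, differed by -0.12, with -0.13 within number 1 and -0.11 within number 2. Sema6b, at -0.035, had opposite signs in the numbers, and was 0.00018 under quantile scaling and 0.019 after the shift that centring adds.

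B ephrins, transmembrane ligands that also signal back into the cell that carries them, were lower in titled nicotine within both numbers at the representative probe set of all 3 genes. Efnb1 read 6.80 and 6.11 in titled nicotine, against 6.96 and 6.80 in titled saccharin. The difference was -0.43 (SE 0.33). Titled nicotine 1 and titled saccharin 2 share the same value, and another Efnb1 probe set above the dim range differed by 0.38 the other way. Efnb2 differed by -0.11, and its next brightest probe set by -0.037. A dimmer Efnb2 probe set differed by 0.31, but read the same 2.69 on both arrays of number 1. Efnb3 differed by -0.015. The A ephrins, which are anchored in the membrane by a lipid, gave no common direction. Efna1 read 6.25 and 6.09 in titled nicotine, against 5.99 and 5.39 in titled saccharin, and was the 1 member higher in titled nicotine without overlap, at 0.48 (SE 0.29, adjusted p = 1). Groups of that kind made up 2.71% of all genes at that level. Efna5, a cue of topographic maps, read 9.87 and 9.92 in titled nicotine, against 10.007 and 9.999 in titled saccharin. The arrays of a title lay close together, and the difference of -0.10 had an SE of 0.024, with an adjusted p of 1 in limma. It turned positive, to 0.14, in the mean of all Efna5 probe sets.

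Slit2, a secreted repellent for axons that carry Robo receptors, had 3 probe sets above the dim range, and all 3 were lower in titled nicotine within both numbers. The brightest read 10.42 and 11.01 in titled nicotine, against 10.72 and 11.16 in titled saccharin, which gives -0.23 (SE 0.34). The next read 4.30 and 5.05 in titled nicotine, against 4.73 and 6.28 in titled saccharin, a difference of -0.83. The dimmest read 3.00 and 4.74 in titled nicotine, against 3.89 and 5.76 in titled saccharin, a difference of -0.95. These 3 have one sign, yet the titles overlap at each of them. In the authors' deposited table, whose direction is not stated, they had log2 fold changes of 0.24, 1.21 and 0.87, and the 1.21 had an unadjusted p of 0.0266, the smallest of any member probe set there, and an adjusted p of 1. Slit1 differed by 0.26, with 0.49 within number 1 and 0.035 within number 2, and Slit3 had opposite signs in the numbers. Netrin 4 (Ntn4), a laminin-related netrin, differed by -0.23, with -0.063 within number 1 and -0.40 within number 2.

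Among the receptors, 28 were above the dim range, with a median difference of -0.061, and 12 were lower and 5 higher in titled nicotine within both numbers. Plxnb1, the main receptor for Sema4d, had the most negative difference of the members with one sign in both numbers. It read 8.75 and 7.88 in titled nicotine, against 8.95 and 8.62 in titled saccharin. Its difference was -0.47 (SE 0.43, limma adjusted p = 1). The value of titled nicotine 1 lies between those of titled saccharin, so the groups overlapped. Its other probe set above the dim range held one value, 6.49, on all 4 arrays. Plxnb2, a related receptor for class 4 semaphorins, read 8.22 and 7.78 in titled nicotine, against 8.40 and 8.33 in titled saccharin. Its titles did not overlap, at -0.37 (SE 0.21, limma adjusted p = 1). The authors' deposited table gives 0.41 as its log2 fold change, direction unstated, at an unadjusted p of 0.0473 and an adjusted p of 1. Other members described here had larger unadjusted p-values in that table. They were 0.16 for Plxnb1, 0.50 for Epha3, 0.14 for Sema3a, 0.43 for Plxnd1, 0.54 for Efna5 and 0.13 for Efna1. Plxnb3, the remaining B plexin and one known for its expression in oligodendrocytes, differed by 0.041, with opposite signs in the numbers.

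Plxnd1, the receptor for Sema3e and known for its part in vessel patterning, read 9.91 and 9.87 in titled nicotine, against 9.999 and 10.03 in titled saccharin. The arrays of a title lay close together here, and the difference of -0.12 had an SE of 0.024 with an adjusted p of 1. Of the A plexins, which pair with neuropilins, Plxna1, Plxna3 and Plxna4 were higher in titled nicotine within both numbers, at 0.10, 0.11 and 0.088. Another Plxna4 probe set above the dim range differed by -0.093. Plxna2 was lower in both numbers, at -0.084. Nrp1 differed by -0.0041 with opposite signs in the numbers, and Nrp2 by -0.13.

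Eph receptors are receptor tyrosine kinases, except that the kinase domain of EphB6 is inactive. Of the 10 above the dim range, 4 were lower and 1 was higher in titled nicotine within both numbers. Epha3 read 7.12 and 7.21 in titled nicotine, against 7.67 and 7.44 in titled saccharin. The titles did not overlap, at -0.39 (SE 0.11, limma adjusted p = 1). Another Epha3 probe set above the dim range differed by -0.56, with the same sign. Epha5 read 11.12 and 10.06 in titled nicotine, against 11.31 and 10.50 in titled saccharin, which gives -0.31 (SE 0.62). Its SE takes in the gap between the numbers, which at -0.93 is larger than the difference by title. Epha8, close to the median level, differed by 0.34, with titled nicotine 2 and titled saccharin 1 at the same value. Epha6 differed by 0.087 and was the same in both titles within number 2.

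Groups did not overlap, with titled nicotine lower, in 5 of the 60 members, namely Epha3, Plxnb2, Sema3a, Plxnd1 and Efna5, and this held for 7.2% of all genes at that level. Robo2, a slit receptor, had the difference of greatest size, -1.31 (SE 1.04), but it rests on 1 array. It read 4.48 and 4.06 in titled nicotine, against 4.48 and 6.68 in titled saccharin, and within number 1 the titles were the same. Without titled saccharin 2 the difference was -0.21. Robo1, the main slit receptor of cortical axons, differed by -0.13. Of the netrin receptors, Unc5b, known from endothelial cells, differed by 0.18, Unc5d by -0.19 and Dcc, the attractive netrin receptor, by 0.031. Netrin-G1 (Ntng1), a membrane-anchored relative of netrins at synapses, differed by -0.070, with -0.076 within number 1 and -0.064 within number 2. Of these, Unc5d and Ntng1 were lower and Unc5b higher in titled nicotine within both numbers, while Dcc had opposite signs.

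**Figure D2:**
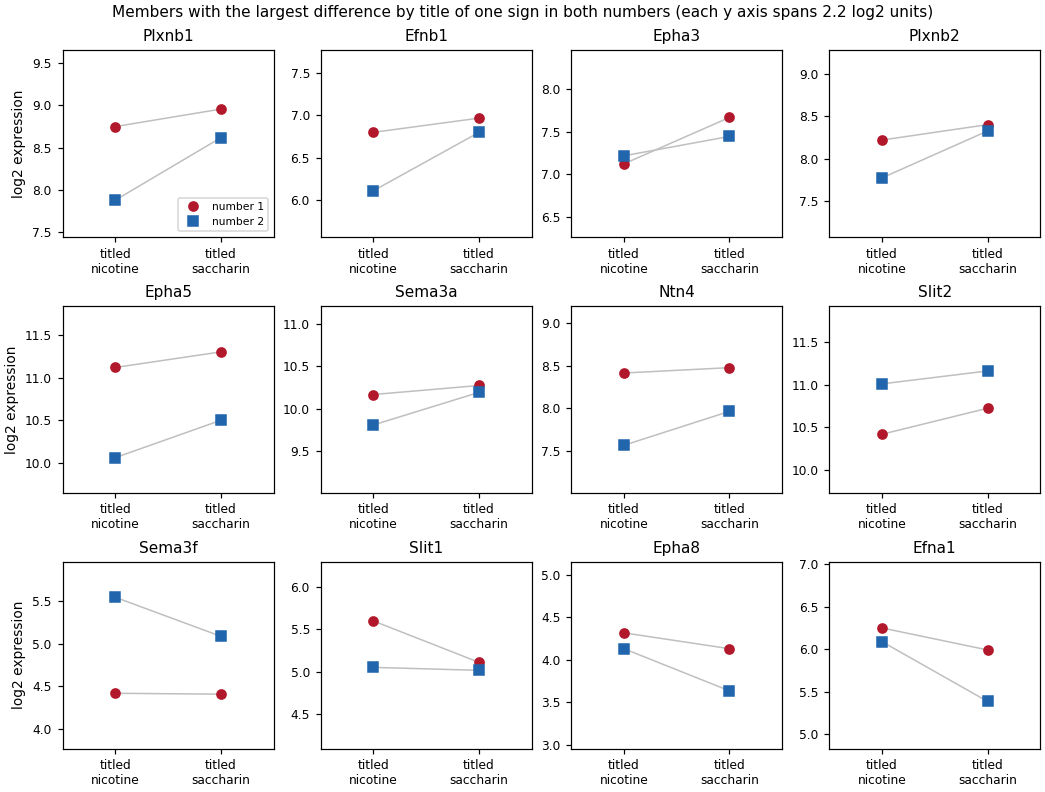
Log2 expression on the 4 arrays for the 12 members with the largest difference by title of one sign in both numbers, ordered from -0.47 (Plxnb1) to 0.48 (Efna1). Red circles are arrays numbered 1, blue squares arrays numbered 2, and grey lines join arrays of one number. Plxnb2, Epha3 and Sema3a show no overlap between titles, while in Epha5, Ntn4 and Slit2 the numbers lie farther apart than the titles.

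Plotted for number 1 against number 2, the differences by title spread over all 4 quadrants. Efna1 and Epha8 lie high in both, and Plxnb1, Plxnb2, Efnb1, Epha3 and Epha5 low in both. Sema4b, with -0.41 within number 1 and 0.78 within number 2, and Sema5b, with -0.58 and 0.18, lie in opposed quadrants. Slit3, with 0.12 within number 1 and -0.59 within number 2, does so too. In 24 of the 60 members the numbers gave opposite signs, and in 2 a number showed no difference.

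**Figure D3:**
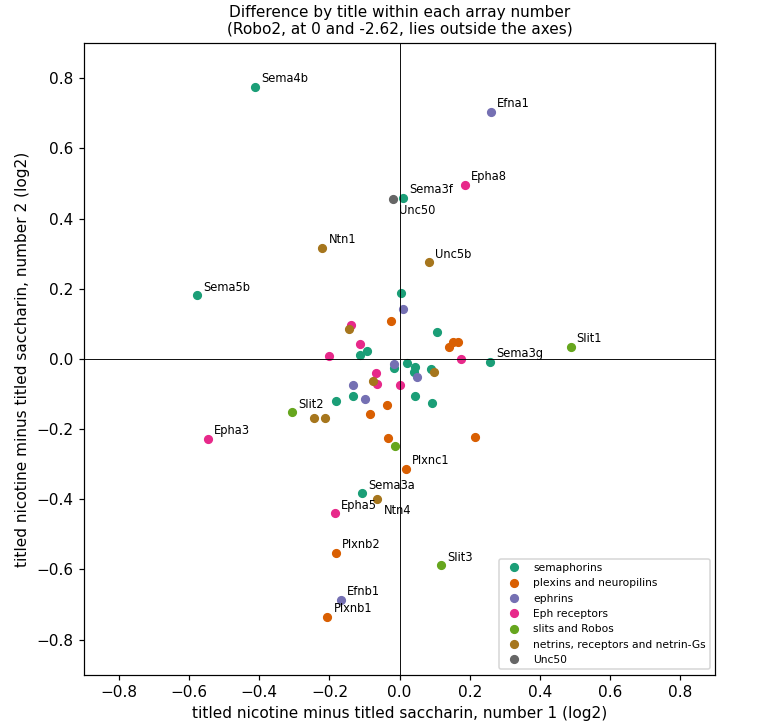
Titled nicotine minus titled saccharin within number 1 (x axis, log2) and within number 2 (y axis, log2) for the 60 members above the dim range, coloured by family. Points in the lower left (23 genes) and upper right (11 genes) have one sign in both numbers, and Robo2 lies outside the axes.

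RefSeq promoter windows of 300 bases, 250 before and 50 after a gene's start, were found for 60 of the 70 members, in 76 windows (build GRCm38.p6). They had a median GC content of 64.0%, beside 56.3% over the 21263 windows of protein-coding genes. The GC box GGGCGG, searched on both strands, was in 71.1% of the member windows and 46.2% of all. TATAAA was in 2.63% and 12.6%, the E-box CACGTG in 6.58% and 7.84%, and the cyclic AMP response element TGACGTCA in 1.32% and 2.23%, each on either strand. These are counts of letters, and no binding was measured. The windows of Plxnb1 and Plxnb2 are shown because these B plexins were lower in titled nicotine within both numbers, and of the 2 Plxnb2 windows the first listed is given, the other being chr15:89173902-89174201 with a GC content of 61.7%. That of Slit2 is shown because its 3 probe sets agreed by title, and that of Sema5a because it had the largest difference by number of the members' representative probe sets. They lie at chr9:109095186-109095485 on the plus strand, chr15:89180739-89181038 on the minus strand, chr5:47982905-47983204 on the plus strand and chr15:32244563-32244862 on the plus strand, and are written 5′ to 3′ along the gene, with GGGCGG or its reverse complement in capitals.
Plxnb1: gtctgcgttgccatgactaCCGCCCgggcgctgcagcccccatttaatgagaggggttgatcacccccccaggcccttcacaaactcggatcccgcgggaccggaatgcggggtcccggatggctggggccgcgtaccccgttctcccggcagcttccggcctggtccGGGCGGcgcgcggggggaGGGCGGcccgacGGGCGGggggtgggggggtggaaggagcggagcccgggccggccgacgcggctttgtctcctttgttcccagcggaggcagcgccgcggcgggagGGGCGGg
Plxnb2: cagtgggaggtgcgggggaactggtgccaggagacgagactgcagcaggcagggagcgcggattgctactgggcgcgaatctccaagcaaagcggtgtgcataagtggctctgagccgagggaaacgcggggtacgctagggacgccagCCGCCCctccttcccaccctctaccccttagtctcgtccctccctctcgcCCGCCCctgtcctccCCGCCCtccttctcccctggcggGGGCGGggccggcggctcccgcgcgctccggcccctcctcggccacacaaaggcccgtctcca
Slit2: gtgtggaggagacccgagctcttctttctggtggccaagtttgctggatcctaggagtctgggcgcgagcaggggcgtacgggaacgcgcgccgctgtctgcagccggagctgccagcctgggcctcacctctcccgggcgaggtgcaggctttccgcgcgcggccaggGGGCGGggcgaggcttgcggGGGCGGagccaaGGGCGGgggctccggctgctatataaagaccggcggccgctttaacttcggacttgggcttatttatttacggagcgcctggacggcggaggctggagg
Sema5a: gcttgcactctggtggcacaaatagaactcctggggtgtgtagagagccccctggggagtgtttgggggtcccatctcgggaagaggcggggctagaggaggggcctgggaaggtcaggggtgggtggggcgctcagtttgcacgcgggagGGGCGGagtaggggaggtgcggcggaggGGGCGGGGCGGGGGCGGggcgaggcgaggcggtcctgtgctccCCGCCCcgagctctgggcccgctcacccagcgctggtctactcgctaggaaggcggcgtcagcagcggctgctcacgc
The box was found 5 times in the Plxnb1 window, 4 times in that Plxnb2 window, 3 times in that of Slit2 and 5 times in that of Sema5a, where matches overlap. The Slit2 window is 1 of the 2 member windows with TATAAA.

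By number, 0 of the 70 members passed limma's test with title as a term, as did 0% of all probe sets. At an unadjusted p under 0.05, 23 of the 60 members above the dim range were counted, against 30.1% of genes at that level. The smallest adjusted p was 0.0836, for Efnb3. Without the title term, Sema5a, Efnb3, Sema4a and Sema4f passed, 4 of the 60 members above the dim range. So did 501 of the 12233 genes at that level, and 2.44% of all probe sets. With other scaling 19 members passed with centred arrays (19.6%), and 15 of 60 with centring and the filter on dim probe sets (27.5% of those tested). The fit with the title term has 1.33 degrees of freedom, while that with centred arrays took an infinite prior for the variance, one shared by all probe sets. Both arrays of number 2 were below both of number 1 in 35 of the 60 members, against 54.9% of genes at that level, and above them in 10, against 19.6%. These shares, 58.3% and 16.7%, lay near those of all genes. The numbers are not explained in the labels.

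Sema5a, a transmembrane semaphorin that can attract or repel axons, had the largest difference by number of the members' representative probe sets. It read 10.15 on titled nicotine 2 and 10.16 on titled saccharin 2, against 7.32 on titled nicotine 1 and 7.30 on titled saccharin 1. That is a difference of 2.85 (SE 0.015, limma adjusted p = 0.0907, or 0.00852 without the title term), while the titles differed by 0.0044. Another Sema5a probe set above the dim range differed by 0.12. Unc5a, a repellent netrin receptor, read 8.52 and 8.44 on the arrays of number 2, against 6.91 and 7.05 on those of number 1, a difference of 1.504 (SE 0.10, adjusted p = 0.220). Efna3 differed by 1.02, Plxna4 by 0.92, Sema3f by 0.91, Sema5b by 0.85 and Sema4d, the ligand of Plxnb1, by 0.82, each higher in number 2 without overlap. In all, 10 of the 60 members had a difference over 0.5 with no overlap on this side, beside 7.11% of genes above the dim range. These values are those of the representative probe sets. Another probe set above the dim range went the other way in Efna3 (-0.19), Plxna4 (-0.40) and Sema5b (-0.070).

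On the lower side, 12 members were lower by more than 0.5 without overlap (22.0% of all genes at that level). Nrp2, the co-receptor for Sema3f, read 7.10 and 7.32 on the arrays of number 2, against 8.30 and 8.33 on those of number 1. Its difference of -1.10 (SE 0.084, adjusted p = 0.231) ran opposite in sign to that of Sema3f. Sema4b differed by -1.03, Epha5 by -0.93, Dcc by -0.78 and Robo1 by -0.71. Another Dcc probe set above the dim range differed by 0.70, the other way. With centred arrays the median of all genes moved by -0.16, and the members named here by number kept their signs.

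Probe sets of one gene often did not agree on the difference by number. Of the 29 members with several probe sets above the dim range, all of a gene's probe sets had one sign in 8 by number and in 11 by title. A difference of 0 was counted as another sign, as for Plxnb1 in both counts. The share over all genes was not computed. The 4 genes below were singled out after their values were seen. Efnb2 differed by number by -0.33 at its brightest probe set, by 0.26 at the next and by 3.21 at a dimmer one. The dimmer one read 2.69 on both arrays of number 1, against 6.21 and 5.58 on those of number 2. Its mean of 4.29 thus passed the dim range only through number 2. Epha4, an Eph receptor that binds both classes of ephrin, differed by -0.15 at its brightest probe set and by 2.85 at another. That second probe set read 11.72 and 11.20 on the arrays of number 2, against 8.60 and 8.61 on those of number 1. Unc5c differed by -0.59 and 2.83, and Sema6d by -0.37 and 2.43. Of the 46 other probe sets of the members above the dim range, 15 were higher in number 2 by more than 0.5 without overlap, beside 32% of such probe sets over all genes, and 6 were lower, beside 17.8%. In the same arrays, the 3′ minus the 5′ probe set of Actb, which depends on how intact and how fully labelled the RNA is, was 1.25 and 1.73 in number 2 (titled nicotine and titled saccharin), against 2.39 and 2.38 in number 1. For Gapdh the gap between the numbers was smaller, with -0.14 and 0.0070 in number 2, against 0.092 and 0.13 in number 1. The part of RNA quality in these differences was not tested.

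**Figure D4:**
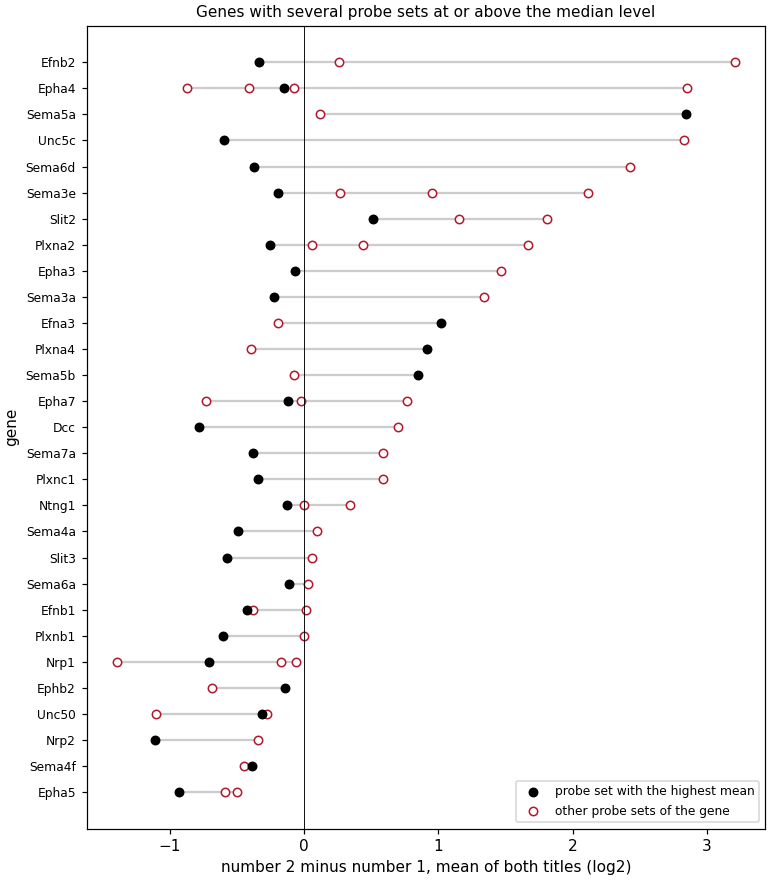
Number 2 minus number 1 (log2, mean of both titles) for each probe set above the dim range of the 29 members that have several there. Black points are the probe set with the highest mean, which represents the gene, and open red points the others; for Efnb2, Epha4, Unc5c and Sema6d they lie on opposite sides of 0, from -0.87 to 3.21.

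Other genes of the pathway were read from lists of signalling genes and further cues. Of 45 genes that act downstream of guidance receptors, 42 were above the dim range, 0 passed limma's test by title, and 18 of the 42 were lower and 6 higher in titled nicotine within both numbers, with a median difference of -0.015. Rhoa, the GTPase behind growth cone collapse, read 12.05 and 12.06 in titled nicotine, against 12.06 and 11.81 in titled saccharin, a difference of 0.12. Farp2, an exchange factor bound to A plexins, differed by -0.19 and Srgap3, a GTPase-activating partner of Robos, by -0.040, or 0.014 after the shift that centring adds. Of 29 measured genes of other guidance cues and adhesion receptors, 27 were above the dim range, 0 passed by title, and 15 of the 27 were lower and 6 higher within both numbers, with a median of -0.077. The lower shares in these lists, 42.9% and 55.6%, stand beside 30.6% of all genes above the dim range. The higher shares, 14.3% and 22.2%, stand beside 16.8%, and the median over all genes there was -0.029. These gaps were not tested. The contactin genes Cntn1 and Cntn6 differed by 0.073 and -0.23, and Dscam, an adhesion molecule that also binds netrin, by -0.092. By number, 0 of either list passed, and the medians were -0.15 and -0.098 over those above the dim range, beside -0.18 over all genes there.

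Several members are expressed outside neurons, so markers of other cells were read on the same arrays. Oligodendrocyte markers had 11 of 11 above the dim range, of which 8 were higher in titled nicotine within both numbers and 0 lower, with a median of 0.13. Of all genes above the dim range 16.8% were higher and 30.6% lower within both numbers, with a median of -0.029. The summed log2 level of the 11 oligodendrocyte markers was 141.1 and 140.9 on titled nicotine 1 and 2, against 140.6 and 137.9 on titled saccharin 1 and 2. The 7 choroid plexus markers had a median of 0.26, 4 of them above the dim range, and summed to 43.7 and 48.4 in titled nicotine, against 44.1 and 40.9 in titled saccharin, with Ttr at 3.21 within number 2 and 0.17 within number 1. Medians by title were 0.029 for 11 neuronal, 0.046 for 6 oligodendrocyte precursor, 0.0076 for 8 astrocyte, 0.024 for 9 microglia, 0.0019 for 7 endothelial, -0.034 for 5 mural, 0 for 6 meningeal, 0.030 for 7 striatal and 0.15 for 2 red blood cell markers. Aldh1l1, Kl, Drd2 and Hba-a1 were near the lowest value. The part of these cells in the members' values was not tested, and in tissue RNA fewer cells of a type and less RNA per cell cannot be told apart.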

How the data were processed

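Messenger RNA of mouse cortex was turned into biotin-labelled cRNA for Affymetrix arrays, per the labels' protocols, which state pools of 4 animals, 5 pools per group and 20 subjects in total. The 4 arrays were grouped and numbered by title, and all 4 were used. The authors deposited log2 expression values for each probe set. How these were normalized is not given in the sources used here; the scale was read from the values (array medians 3.88 to 4.09). The authors' deposited table holds log2 fold changes and mean log2 levels, p-values and adjusted p-values, and a moderated statistic and log odds (a score), per the file headers. The submitters' processing notes name limma. Direction and arrays of that table are not stated; its statistics and p-values fit 8.37 total degrees of freedom, against 2.32 here.

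Gene symbols came from the same table, and all 70 member symbols are current in RefSeq (GRCm38.p6). Differences were fitted by lmFit and eBayes of limma 3.58.1 (R 4.3.3, default settings) on all 45101 probe sets, by title without covariates, and by number with title as a term, with p-values adjusted by Benjamini-Hochberg across the whole array and a threshold of 0.05. The fit was tested on simulated data with independent noise. Unlike these arrays, those data held no shared values and a shift by number in few probe sets. That test therefore does not show how the fit behaves on such values. No column was left unused. Members, lists, the naming rule and the alternatives were chosen with earlier results of these data known. Named were the 12 members above the dim range with the largest difference of one sign by title, the 12 by number, any member past the threshold, the 3 with the smallest p in each of 6 families, and up to 3 of each of the 2 pathway lists. Other members named were chosen after their values were seen. Alternatives were quantile scaling, centred arrays, a filter on dim probe sets, trend and robust variance, the number as a block, no title term, a gene's probe sets averaged, leaving out each array, and, added after seeing the data, centring with the filter. Arrays carry no depth; their number limits the precision.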

Additional observations from a re-analysis of the deposited data

How the results depend on the processing

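By title, 0 members passed in limma under each alternative except without titled nicotine 1, where 1 of 70 passed, Ephb4, below the dim range, beside 0.84% of all probe sets (range over the left-out arrays 0 to 1; the cause was not tested). The median over the members was 0 under quantile scaling, 0.035 with centred arrays, 0.021 with centred arrays and the filter, -0.033 with the filter and 0 with the mean of all probe sets, and from -0.10 to 0.026 with an array left out, so its sign is not fixed. The numbers in the 2 titles are not explained; the shifts from number 1 to number 2 correlated at 0.804 between titles over all probe sets. With the number as a replicate block, 0 members passed, with or without the filter, and 7 of the 60 above the dim range had an unadjusted p under 0.05, against 8.84% of all genes at that level. By number, 19 members passed with centred arrays (19.6% of all probe sets), and 15 of 60 with centred arrays and the filter (27.5%). Without the title term 4 passed (2.44%), as did 501 of the 12233 genes above the dim range. Under quantile scaling, the filter, trend and robust variance or the mean of all probe sets 0 members passed. With an array left out no residual degrees of freedom remained and no test was made. The median by number was -0.20 under quantile scaling, -0.34 with centred arrays, -0.40 with centring and the filter, -0.24 with the filter and 0 with the mean of all probe sets, and from -0.17 to -0.16 with an array left out. Of the members, 0 passed in the authors' deposited values at 0.05, at 0.01 or with the filter. Of the genes named by the rule, signs by title turned in the mean of all probe sets for Cntn1 (-0.069), Dscam (0.19), Efna5 (0.14), Ntn4 (0.029), Sema3a (0.097) and Srgap3 (0.19), and by number for Dcc (0.0047). Sema6b turned to 0.00018 under quantile scaling, and to 0.019 with centred arrays, where Srgap3 turned to 0.014, both also with the filter; centring adds 0.054 to each gene alike. Leaving out 1 array turned the sign by title of 46 of the 60 members above the dim range, beside 77.2% of all genes there. Among the genes the rule names by title, 8 turned, with values from -0.84 to 0.22 for Epha5, -0.66 to 0.19 for Ntn4, -0.0037 to 0.24 for Rhoa, -0.33 to 0.80 for Sema3f, -0.093 to 0.024 for Sema6b, -0.012 to 0.53 for Slit1, -0.53 to 0.067 for Slit2 and -0.48 to 0.093 for Unc5d. The cause was not tested.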
